A study of Mus musculus with 12 samples.

Results

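miR-26a and miR-26b are a pair of mature miRNAs that share a seed and are encoded inside genes of the Ctdsp family. They were followed through endoplasmic reticulum (ER) stress in fibroblasts with and without the transcription factor ATF4. The pair was taken by name, as the array entries mmu-miR-26a and mmu-miR-26b, and makes up 2 of 611 mouse miRNA names on the array. Both were chosen by measured values in these same data, miR-26a in WT cells after 24 h of tunicamycin and miR-26b in the difference between the KO and WT responses at 12 h. The differences of both miRNAs in these 2 comparisons are therefore given as a description, with no test. The other 9 comparisons share arrays with those 2. The 24 h difference between responses contains the value that chose miR-26a and is given without a test for it. Both 12 h responses, and the genotype differences untreated and at 12 h, are parts of the value that chose miR-26b, so its p-values there are not independent of that choice. Comparisons with WT arrays untreated or at 24 h use arrays that chose miR-26a, so its p-values there are not independent either. The same parts for miR-26a make up its 12 h response difference, which is given without a test, so its p-values there share that limit.

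Total RNA came from mouse embryonic fibroblasts of the C57BL/6 background, cultured without drug or with 2 ug/mL tunicamycin, which blocks N-linked glycosylation and so loads the ER with unfolded protein. The 6 groups were ATF4KO cells untreated, ATF4KO cells at 12 h, ATF4KO cells at 24 h, ATF4WT cells untreated, ATF4WT cells at 12 h and ATF4WT cells at 24 h, here called KO and WT. Each group had 2 arrays, which the labels describe as independent experiments. The p-values measure spread between the arrays of a group, and the small number of arrays limits their precision. Arrays with the same replicate number on a slide shared a scan date, and the main fit took no account of that. The labels do not say how the ATF4KO cells were made or whether the cells were primary or immortalised, and ATF4 mRNA is not measured on a miRNA array, so the genotype labels were not checked here.

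miRNAs are cut from hairpin precursors by the nucleases Drosha and Dicer and guide Argonaute proteins to messenger RNAs, mostly through the seed at bases 2 to 8. Mammalian miR-26 genes lie in introns of the Ctdsp genes, which encode small phosphatases of the RNA polymerase II C-terminal domain, and miR-26 is known for repressing cell cycle genes and the histone methyltransferase Ezh2. ATF4 is translated when the kinase PERK phosphorylates eIF2alpha during ER stress, and it activates genes of amino acid supply, redox balance and the stress response.

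The mature sequences are shown because a probe must tell the pair apart by few bases. Sequences are from RefSeq on GRCm38.p6, written 5′ to 3′, with the seed in capitals. miR-26a has 22 bases and miR-26b has 21.
miR-26a: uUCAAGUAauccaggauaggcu
miR-26b: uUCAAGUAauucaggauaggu
Over the shared length the pair differs by C11U and C21U, with positions counted from 1 at the 5′ end and the base of miR-26a given first. The first 10 bases are shared, and 19 positions are identical. Among 1679 mature mouse names in the RefSeq table, 2 carry the seed UCAAGUA, and they are miR-26a-5p and miR-26b-5p, the current names of this pair.

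miR-26a is encoded at 2 loci that give the same mature sequence, so the array reads their sum. The mature sequence of Mir26a-1 lies on the plus strand at chr9:119031811-119031832, within the gene body of Ctdspl. That of Mir26a-2 lies on the plus strand at chr10:126995543-126995564, within the gene body of Ctdsp2. miR-26b comes from 1 locus, with its mature sequence on the plus strand at chr1:74394324-74394344 within the gene body of Ctdsp1. The table gives gene bodies and no exons. The 3 hairpins are shown with the mature miRNA in capitals, to show that the arms outside it differ between loci.
Mir26a-1: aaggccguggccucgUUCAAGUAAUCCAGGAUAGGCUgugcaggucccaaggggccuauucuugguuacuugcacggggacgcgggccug
Mir26a-2: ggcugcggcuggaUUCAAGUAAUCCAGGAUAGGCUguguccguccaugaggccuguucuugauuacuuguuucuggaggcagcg
Mir26b: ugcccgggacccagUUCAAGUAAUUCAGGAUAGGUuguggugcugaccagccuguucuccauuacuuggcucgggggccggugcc

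The promoters of the host genes were searched on both strands for 3 motifs of the stress response, from 250 bases before to 50 bases after the annotated start. These were the C/EBP-ATF response element core TGATGNAA, the ER stress response element, CCAAT and CCACG with 9 bases between them, and the unfolded protein response element core TGACGTGG. The Ctdsp1 window, on chromosome 1, held 1 match to TGATGNAA, which begins 21 bases before the gene's start. That motif occurs in 3.97 percent of 32851 mouse promoter windows, so a match is not rare. The stretch that holds it, on the plus strand at chr1:74391509-74391608, is shown with the match in capitals.
Ctdsp1: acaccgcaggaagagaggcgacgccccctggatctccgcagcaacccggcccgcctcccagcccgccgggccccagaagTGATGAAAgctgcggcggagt
The windows of Ctdspl and Ctdsp2 held 0 matches to any of the 3 motifs, and the other 2 motifs had 0 matches in Ctdsp1. The ER stress response element occurs in 0.119 percent of all windows and TGACGTGG in 0.676 percent. The array measures neither host messenger RNA nor ATF4 binding.

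Levels are given as scaled signal on a log2 scale: the processed signal of a miRNA over the 75th percentile, on the same array, of 82 miRNAs well above background on all 12 arrays. The signal of a probe depends on its sequence, so each miRNA is compared with itself between groups. Both miRNAs were well above background and unsaturated on all 12 arrays. Between 92 and 164 mouse miRNAs per array reached that mark, and 145 were tested. The lowest and highest of these counts were both in KO cells at 24 h, on replicates 1 and 2. The 4 arrays of untreated cells were on a different slide from the 8 arrays of treated cells, and the effects of slide and of treatment cannot be told apart. On both slides WT arrays occupied the first row and KO arrays the second, so genotype and row cannot be told apart. Replicates spread more on the tunicamycin slide, with a pooled SD over tested miRNAs of 0.51 to 1.23, against 0.13 and 0.15 in the untreated KO and WT groups. For miR-26a and miR-26b the SD within a group was 0.01 to 0.32.

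miR-26a was at a similar level in all KO groups and in untreated WT cells, and lower in both WT groups that received tunicamycin. In KO cells its log2 scaled signal was -1.20 and -1.12 untreated, -0.99 and -1.22 at 12 h, and -1.17 and -1.56 at 24 h. In WT cells it was -1.22 and -1.34 untreated, -2.39 and -2.60 at 12 h, and -2.40 and -2.53 at 24 h. The 4 WT tunicamycin arrays lay below the other 8 arrays without overlap. In order of the mean linear scaled signal, KO at 12 h (0.468 ± 0.0526, SD, n = 2 here and below) was followed by untreated KO (0.448 ± 0.0167), untreated WT (0.412 ± 0.0245) and KO at 24 h (0.392 ± 0.0735). WT at 24 h (0.182 ± 0.0115) and WT at 12 h (0.178 ± 0.0180) came last. Among these neighbours only untreated KO and untreated WT, and KO at 24 h and WT at 24 h, did not overlap, and the first of those 2 gaps was small beside the standard error of the fit.

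miR-26b had its highest level in untreated WT cells and its lowest in WT cells at 12 h. In KO cells its log2 scaled signal was -2.59 and -2.61 untreated, -2.09 and -2.27 at 12 h, and -2.32 and -2.76 at 24 h. In WT cells it was -1.90 and -1.98 untreated, -2.74 and -3.02 at 12 h, and -2.65 and -2.71 at 24 h. Untreated WT arrays lay above all other arrays, while the KO arrays at 24 h spanned the range of untreated KO and of WT at 24 h. In order of the mean linear scaled signal, untreated WT (0.261 ± 0.00991) was followed by KO at 12 h (0.221 ± 0.0190), KO at 24 h (0.174 ± 0.0377) and untreated KO (0.165 ± 0.00133). WT at 24 h (0.156 ± 0.00499) and WT at 12 h (0.137 ± 0.0189) came last. Of these neighbours, KO at 24 h and untreated KO overlapped, and the difference between KO at 24 h and KO at 12 h did not pass the test given below.

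**Figure D1:**
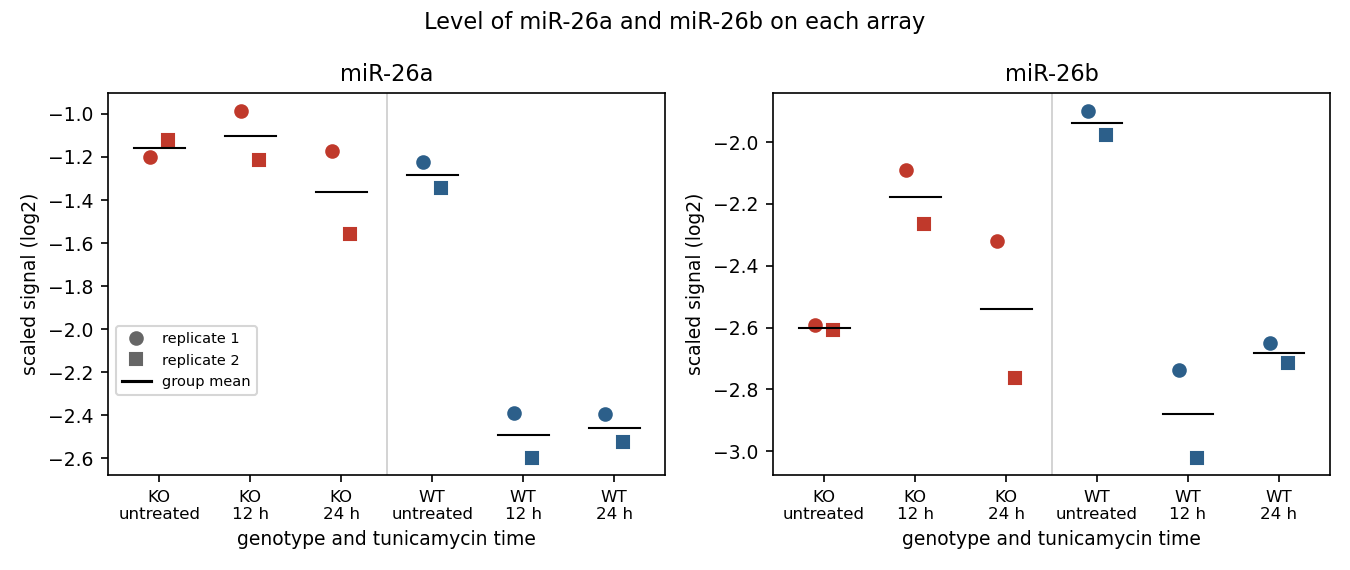
Scaled signal on a log2 axis for miR-26a (left) and miR-26b (right) on each of 12 arrays, by genotype and tunicamycin time, with KO groups in red, WT groups in blue, replicates 1 and 2 as circles and squares, and the group mean as a bar. The 2 panels have separate axes. The WT tunicamycin arrays of miR-26a sit between -2.60 and -2.39, and the untreated WT arrays of miR-26b, at -1.90 and -1.98, are the highest of that panel.

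In WT cells both miRNAs were lower after 12 h of tunicamycin than in untreated cells. The log2 scaled signal of miR-26a was -2.39 and -2.60 at 12 h, against -1.22 and -1.34 untreated. It fell by 1.21 ± 0.15 (log2 difference ± standard error), or 2.32-fold (limma adjusted p = 0.00213, 95% interval -1.58 to -0.85). miR-26b had -2.74 and -3.02 at 12 h, against -1.90 and -1.98 untreated. It fell by 0.94 ± 0.16, or 1.92-fold (limma adjusted p = 0.00663, 95% interval -1.33 to -0.56). Neither miRNA had overlapping groups. Both members of the pair were thus called, where 31 percent of the 145 tested miRNAs were called and 30.3 percent were called lower. Neither p-value is independent of the choice of the pair, and neither is the count of called members. The untreated WT arrays entered the value that chose miR-26a, and the difference is part of that which chose miR-26b. The median difference of the 82 always-detected miRNAs was -0.34, and miR-26a lay 0.88 and miR-26b 0.61 below it, ranking 6 and 15 from the lowest. Relative to that median the differences were -0.97 to -0.88 for miR-26a and -0.75 to -0.61 for miR-26b over the scalings tried. Dividing each array by its own scale left these relative values unchanged, so the ranges show only the effect of quantile normalization. With normexp background correction they were -0.44 for miR-26a and -0.19 for miR-26b.

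The calls were made under every omission of 1 array. That of miR-26a was made in 8 of 14 other settings and that of miR-26b in 7 of 14, with differences from -1.40 to -0.57 for miR-26a and -1.13 to -0.32 for miR-26b. Both calls were lost with normexp background correction, with the total gene signal and with median, all-miRNA percentile or quantile scaling, and that of miR-26b also with the deposited table. Beside these calls, the summed scaled signal of 9 miRNAs abundant in fibroblasts, all 9 on the array and 7 well above background on all arrays, was 20.7 to 27.2 in WT cells at 12 h, against 45.8 to 46.6 in untreated WT cells. Its part in the result was not tested. In bulk RNA fewer cells of a type and less RNA per cell cannot be told apart. Of 30 markers of pluripotent, neural, muscle, epithelial, liver, blood and endothelial cells, 3 were well above background on any array: miR-294 and miR-126-3p on 1 array each and miR-206 on 2. The summed scaled signal of all 30 was at most 0.311 on any array. Of the fibroblast list, miR-145 was not well above background on any array.

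At 24 h the WT arrays were near those at 12 h. miR-26a had -2.40 and -2.53 at 24 h, against -1.22 and -1.34 untreated, a difference of -1.18 ± 0.15. miR-26b had -2.65 and -2.71 at 24 h, against -1.90 and -1.98 untreated, a difference of -0.74 ± 0.16. The groups did not overlap for either miRNA. These values belong to a comparison that chose miR-26a and carry no test, and 15.2 percent of all tested miRNAs were called in it. The fibroblast list summed to 27.8 to 32.1 in WT cells at 24 h, against 45.8 to 46.6 in untreated WT cells, and its part was not tested. With normexp the differences turned to 0.03 and 0.38, and with normexp without spots of outlying local background they were -0.37 and -0.04. Between 24 h and 12 h in WT cells the differences were 0.03 ± 0.15 for miR-26a and 0.20 ± 0.16 for miR-26b (limma adjusted p = 1 for both). In that comparison limma called 0 of the 145 miRNAs, with 5 below an unadjusted p of 0.05.

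In KO cells no change of either miRNA passed the test at 12 h or 24 h. miR-26a had -0.99 and -1.22 at 12 h, against -1.20 and -1.12 untreated, and these groups overlapped. Its difference was 0.06 ± 0.15 (limma adjusted p = 0.905, 95% interval -0.31 to 0.42). miR-26b had -2.09 and -2.27 at 12 h, against -2.59 and -2.61 untreated, and both KO arrays at 12 h lay above the untreated ones. Its difference was 0.42 ± 0.16 (limma adjusted p = 0.289), with an interval of 0.04 to 0.81 that is not adjusted for the number of miRNAs. Thus 0 of the 2 were called, where 0.69 percent of tested miRNAs were called in either direction.

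At 24 h miR-26a had -1.17 and -1.56 in KO cells, against -1.20 and -1.12 untreated, and the groups overlapped. Its difference was -0.20 ± 0.15 (limma adjusted p = 0.494, 95% interval -0.57 to 0.16). miR-26b differed by 0.06 ± 0.16 (limma adjusted p = 0.853, 95% interval -0.33 to 0.45), also with overlap. At 24 h 2.07 percent of tested miRNAs were called. The KO arrays at 24 h were unlike, with 92 miRNAs well above background on replicate 1 and 164 on replicate 2. Few calls in KO cells do not show that miRNAs were unchanged. Without scaling between arrays both were called as lower at 24 h, at -1.35 and -1.08 (limma adjusted p = 0.0247 and 0.0378). Between 24 h and 12 h in KO cells the differences were -0.26 ± 0.15 for miR-26a and -0.36 ± 0.16 for miR-26b (limma adjusted p = 0.518 and 0.478). limma called 0 of 145 miRNAs there, with 10 below an unadjusted p of 0.05, and without KO 24 h replicate 1 miR-26b was called at -0.59 (limma adjusted p = 0.0274). The fibroblast list summed to 31.1 to 32.1 in KO cells at 12 h and 28.3 to 37.0 at 24 h, against 35.7 to 35.9 in untreated KO cells.

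The KO response minus the WT response compares the difference with tunicamycin between cells labelled ATF4KO and ATF4WT. Genotype and slide row coincided and the genotype labels were not checked, so dependence on ATF4 itself was not tested. At 12 h the KO response minus the WT response was 1.27 ± 0.22 for miR-26a and 1.36 ± 0.23 for miR-26b. These values chose miR-26b and carry no test. In that comparison 22.8 percent of tested miRNAs were called. Taken within the arrays that share a replicate number, it was 1.38 and 1.16 for miR-26a and 1.34 and 1.39 for miR-26b. With normexp it was 0.26 for miR-26a and -0.10 for miR-26b.

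At 24 h the KO response minus the WT response had lower values than at 12 h for both. For miR-26a it was 0.97 ± 0.22, given as a description, since the WT difference that chose miR-26a is a whole term of it. For miR-26b it was 0.80 ± 0.23 (limma adjusted p = 0.0731, 95% interval 0.26 to 1.35). Thus miR-26b did not pass the test, where 8.28 percent of tested miRNAs were called, 7.59 percent as higher. Within replicate numbers it was 1.20 and 0.75 for miR-26a and 1.02 and 0.58 for miR-26b, so both signs held in both. The value of miR-26a ran from 0.78 to 1.17 over omissions of 1 array, and was -0.43 with normexp and -0.08 with all-miRNA percentile scaling. miR-26b was called with the replicate number or scan date as a block, at 0.80 (limma adjusted p = 0.0373 and 0.0407), and without KO 24 h replicate 2, at 1.03.

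Before treatment miR-26b was lower in KO than in WT cells, by little more than the median of the 82 always-detected miRNAs, -0.54. Untreated KO cells had -2.59 and -2.61, against -1.90 and -1.98 in untreated WT cells, with no overlap. miR-26b was lower in KO cells, with a difference of -0.66 ± 0.16, or 1.58-fold (limma adjusted p = 0.0220, 95% interval -1.05 to -0.28). One of the pair was thus called, where 32.4 percent of the 145 tested miRNAs were called, 6.9 percent as higher and 25.5 percent as lower. The p-value of miR-26b is not independent of its choice, since the difference is part of the value that chose it. The median over the 82 always-detected miRNAs lay 0.12 above the difference of miR-26b, close to it. Relative to that median miR-26b differed by only -0.17 to -0.12 over the scalings tried, and by -0.02 with normexp. The call was lost without any 1 of the 4 untreated arrays, with values from -0.70 to -0.62 over all omissions, and was made in 5 of 14 other settings, with normexp at 0.37. The summed signal of the fibroblast list moved in the same comparison, at 35.7 to 35.9 in KO cells against 45.8 to 46.6 in WT cells, and its part was not tested. Its members did not all move that way: miR-199a-3p was higher in KO cells by 1.20 ± 0.35 and miR-214 by 1.81 ± 0.49. Both are among the miRNAs most like miR-26a on these arrays, so their differences are a description.

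miR-26a had -1.20 and -1.12 in untreated KO cells, against -1.22 and -1.34 in untreated WT cells. The KO arrays lay just above the WT arrays, and the difference of 0.12 ± 0.15 did not pass the test (limma adjusted p = 0.638, 95% interval -0.24 to 0.49). Relative to the median of the 82 miRNAs it was 0.48 to 0.67 over the scalings tried. With normexp it was 0.07, and with normexp without spots of outlying local background 0.41. WT and KO arrays of the same replicate number on the same slide shared a scan date. Within the 2 dates of the untreated slide KO minus WT was 0.02 and 0.22 for miR-26a and -0.69 and -0.63 for miR-26b.

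With tunicamycin both miRNAs were higher in KO than in WT cells at 12 h. miR-26a had -0.99 and -1.22 in KO cells, against -2.39 and -2.60 in WT cells, 1.39 ± 0.15 or 2.63-fold higher (limma adjusted p = 0.00184, 95% interval 1.03 to 1.76). miR-26b had -2.09 and -2.27 in KO cells, against -2.74 and -3.02 in WT cells, 0.70 ± 0.16 or 1.63-fold higher (limma adjusted p = 0.0257, 95% interval 0.32 to 1.09). Neither miRNA overlapped between genotypes. Both were called, where 24.8 percent of tested miRNAs were called, 14.5 percent as higher and 10.3 percent as lower. For miR-26b the p-value is not independent of its choice, since the difference is part of the value that chose it. For miR-26a the difference is part of its 12 h response difference, which is given without a test. Its p-value is therefore not independent of the choice of the pair either. Within scan dates the values were 1.40 and 1.38 for miR-26a and 0.65 and 0.75 for miR-26b.

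The 12 h call of miR-26a was made under every omission of 1 array and in 9 of 14 other settings, with values from 0.73 to 1.39 over those settings. It was lost with both normexp settings, without scaling and with all-miRNA percentile or quantile scaling. The 12 h call of miR-26b was lost without KO 12 h replicate 1, KO 12 h replicate 2 or WT 12 h replicate 2, with values from 0.56 to 0.84 over all omissions. It was made in 4 of 14 other settings, with values from 0.28 to 0.70. The fibroblast list summed to 31.1 to 32.1 in KO cells at 12 h, against 20.7 to 27.2 in WT cells, and its part was not tested.

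At 24 h the genotype difference passed the test for miR-26a only. miR-26a had -1.17 and -1.56 in KO cells, against -2.40 and -2.53 in WT cells, with no overlap. It was 1.10 ± 0.15 or 2.14-fold higher in KO cells (limma adjusted p = 0.00546, 95% interval 0.73 to 1.46). The WT arrays at 24 h also entered the value that chose miR-26a, so this p-value is not independent of that choice. miR-26b had -2.32 and -2.76 in KO cells, against -2.65 and -2.71 in WT cells, and the KO arrays lay on either side of the WT ones. Its difference was 0.14 ± 0.16 (limma adjusted p = 0.702, 95% interval -0.24 to 0.53). One of the pair was thus called, where 15.2 percent of tested miRNAs were called and 7.59 percent called higher. Within scan dates the values were 1.22 and 0.97 for miR-26a and 0.33 and -0.05 for miR-26b. The call of miR-26a was lost without WT 24 h replicate 2 (1.03, limma adjusted p = 0.0509), ranged from 0.90 to 1.29 over all omissions, and was made in 6 of 14 other settings, with normexp at 0.04.

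**Figure D2:**
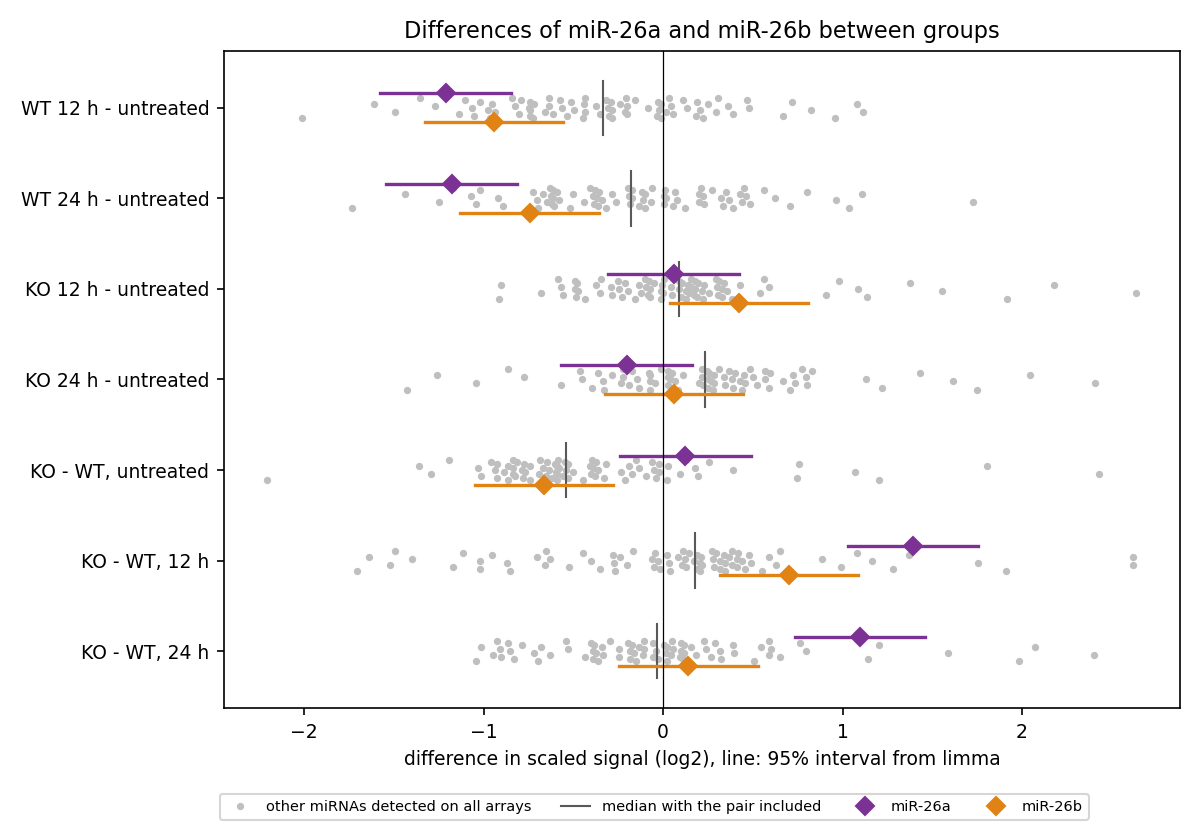
Differences in log2 scaled signal between groups for miR-26a (purple) and miR-26b (orange), with 95% intervals from limma, against the other miRNAs detected on all 12 arrays (grey points) and the median of all 82 (vertical tick); KO and WT stand for the genotypes. In WT cells at 12 h both lie below the median, at -1.21 and -0.94, and in KO against WT cells at 12 h both lie above it, at 1.39 and 0.70.

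The signal of miR-26b over that of miR-26a within an array is the same under any scaling that divides an array by 1 number, though not under quantile normalization, and follows unequal change within the pair. It says nothing of which miRNA is more abundant, since the probes differ. The log2 of this ratio was -1.40 and -1.49 in untreated KO cells, -1.10 and -1.05 in KO cells at 12 h, and -1.15 and -1.21 in KO cells at 24 h. In WT cells it was -0.68 and -0.63 untreated, -0.35 and -0.42 at 12 h, and -0.25 and -0.19 at 24 h. All 6 KO arrays lay below all 6 WT arrays, and within each genotype the untreated arrays lay below the tunicamycin arrays.

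Averaged over the untreated, 12 h and 24 h pairs, the ratio was lower in KO than in WT cells by a log2 difference of -0.81, made of -0.79 untreated, -0.69 at 12 h and -0.96 at 24 h. An exact permutation test of the genotype labels within treatment, two-sided, gave p = 0.00926, the smallest that its 216 arrangements can give, and the same value after Benjamini-Hochberg adjustment over the 2 ratio tests. With tunicamycin the ratio was higher than untreated by 0.33, made of 0.31 in KO and 0.35 in WT cells. The exact permutation test of treatment within genotype, two-sided, gave p = 0.00444 (adjusted 0.00889), the smallest that its 225 arrangements can give. The members were chosen with values of these arrays known, so neither p is independent of that choice. With normexp the 2 differences were -0.34 (exact permutation p = 0.0556) and 0.11 (exact permutation p = 0.493). With normexp without spots of outlying local background they were -0.47 and 0.32, at the same smallest p-values. With quantile normalization, added after seeing the data, they were -0.66, at the same smallest p, and 0.23 (exact permutation p = 0.0978).

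**Figure D3:**
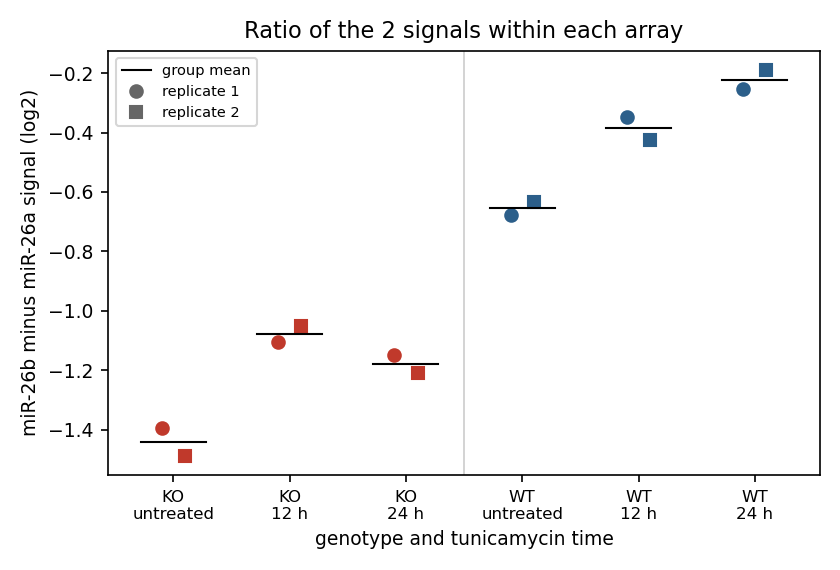
Log2 signal of miR-26b minus that of miR-26a on each of 12 arrays, by genotype and tunicamycin time, with KO groups in red, WT groups in blue, replicates as circles and squares, and the group mean as a bar. The KO arrays lie between -1.49 and -1.05 and the WT arrays between -0.68 and -0.19, and in both genotypes the untreated arrays are lowest.

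Each miRNA was read by 2 probes. Whether the probes of miR-26a also read miR-26b, or the reverse, was not tested. The 2 probes of miR-26b gave nearly equal differences, with a largest gap of 0.06 over 11 comparisons and the same sign in all 11. The 2 probes of miR-26a had the same sign in 9 of 11 comparisons and a largest gap of 0.35. That gap was in WT cells at 24 h against untreated, where probe A_54_P2481 gave -1.43 and probe A_54_P4384 gave -1.08. In the 12 h KO against WT comparison they gave 1.45 and 1.37. The comparisons in which their signs differed were those with differences near 0, in KO cells at 12 h against untreated and in WT cells at 24 h against 12 h.

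**Figure D4:**
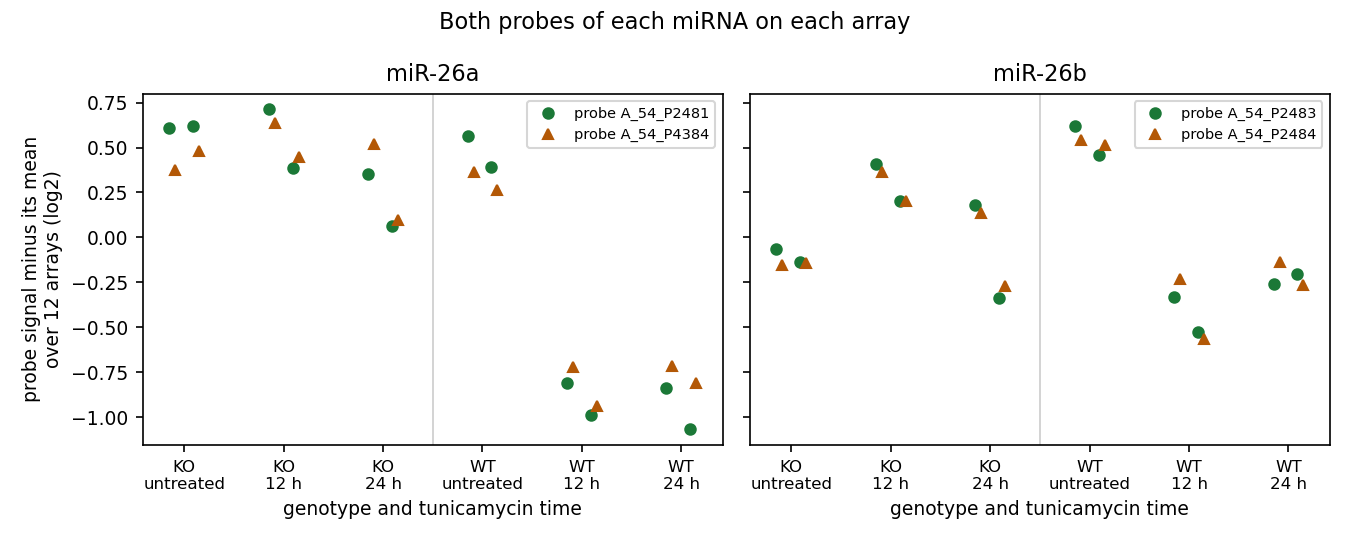
Log2 scaled signal of each probe minus its own mean over 12 arrays, for the 2 probes of miR-26a (left) and of miR-26b (right), by genotype and tunicamycin time. Both probes of miR-26a are lowest on the 4 WT tunicamycin arrays, and the largest gap between probes in any comparison was 0.35 for miR-26a and 0.06 for miR-26b.

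The array also holds miR-26b*, the strand from the other arm of the Mir26b hairpin. It was not well above background on any of the 12 arrays, its unscaled signal ran from -4.24 to 3.51, and it was not tested.

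Over the 12 arrays miR-26a and miR-26b correlated at 0.70, and other miRNAs followed each of them more closely. These correlations are descriptions over arrays that share groups, slides and scaling. The 5 most like miR-26a were miR-322 (0.93), miR-196b (0.92), miR-199a-3p (0.91), miR-214 (0.91) and miR-199b* (0.90). The least like it were miR-193 and miR-365 (-0.86 each), which are encoded side by side. The KO minus WT difference at 12 h was 1.75 ± 0.28 for miR-322, of the miR-15/16 seed family, and -1.70 ± 0.24 for miR-193. These miRNAs were picked for their likeness or unlikeness to miR-26a on the same arrays, so their differences are a description.

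The 5 most like miR-26b were miR-148a (0.96), miR-106b (0.96), miR-146b (0.95), miR-30e (0.93) and let-7i (0.91). Of these miR-146b was at the floor of the scale on 7 arrays and miR-148a on 1. The least like it were miR-365 (-0.47) and miR-1196 (-0.47), the second at the floor on 5 arrays. miR-106b, which lies in an intron of Mcm7, differed by -0.97 ± 0.16 between WT cells at 12 h and untreated, and by -0.59 ± 0.16 between untreated KO and untreated WT cells. It was picked for its likeness to miR-26b on the same arrays, so these values too are a description.

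miRNAs that lie inside protein-coding genes, as this pair does, were described as a list of 33 names, of which 21 were tested. The list held miR-26b*, which was not tested, and miR-106b and miR-30e, both named above for their likeness to miR-26b. In WT cells at 12 h 0 of the 21 were called higher, 8 were called lower and 13 did not pass, with a median difference of -0.57 against -0.32 over all 145 miRNAs, of which 30.3 percent were called lower. The 4 with the highest mean signal were miR-15b, miR-23b, miR-140 and miR-106b. miR-15b of Smc4 differed by -0.64 ± 0.25 (limma adjusted p = 0.104), miR-23b by 0.30 ± 0.44 (limma adjusted p = 0.697) and miR-140 of Wwp2 by -0.08 ± 0.29 (limma adjusted p = 0.930). In KO cells 1 of the 21 was called lower at 12 h and 1 at 24 h, where 0.69 percent of all tested miRNAs were called lower at each time. In untreated KO against WT cells 4 were higher and 5 lower, where 6.9 percent of all tested miRNAs were higher and 25.5 percent lower. At 12 h 3 were higher and 0 lower, where 14.5 percent of all tested were higher and 10.3 percent lower. At 24 h limma called 0 of the 21, where 15.2 percent of all tested were called.

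miRNAs reported to repress Ezh2, as miR-26a does, made a list of 7 names, of which 5 were tested. In WT cells at 12 h 1 of the 5 was called lower and 4 did not pass, with a median of -0.44, where 30.3 percent of all 145 were called lower and their median was -0.32. The one called was let-7c, at -0.44 ± 0.10 (limma adjusted p = 0.0186), while miR-214 differed by -1.49 ± 0.49. In KO against WT cells 3 of the 5 were higher at 12 h and 3 at 24 h, and 0 were lower at either time, where 14.5 percent of all tested miRNAs were called higher at 12 h and 7.59 percent at 24 h. At 12 h let-7b was higher by 0.48 ± 0.13 (limma adjusted p = 0.0363) and let-7c by 0.65 ± 0.10 (limma adjusted p = 0.00578). miR-214, the third miRNA in that count, is also among those most like miR-26a, and its KO minus WT differences are given as a description, 1.81 ± 0.49 untreated and 2.62 ± 0.49 at 12 h. The members let-7a, let-7b and let-7c have near-identical sequences, and probes may read more than 1 of them. Ezh2 itself was not measured.

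**Figure D5:**
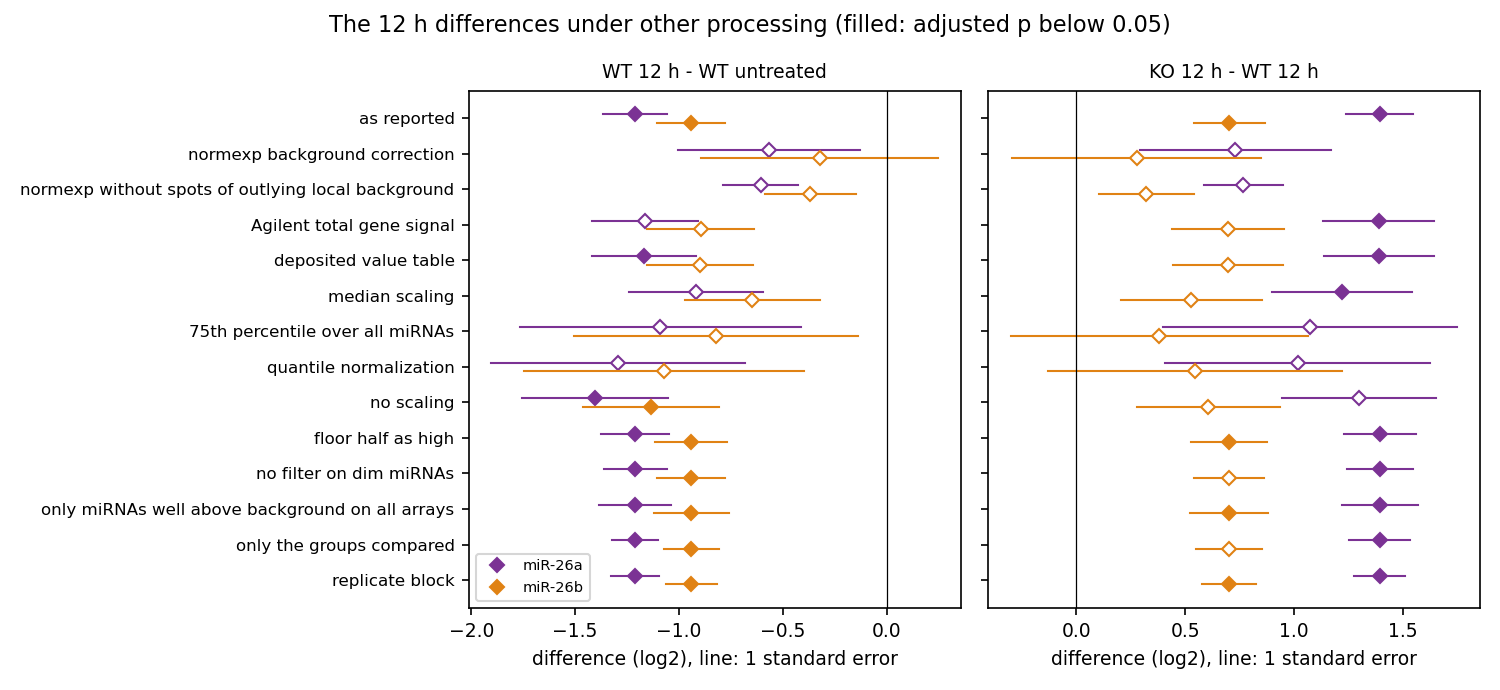
Differences of miR-26a (purple) and miR-26b (orange) in log2 signal, with 1 standard error, under the reported setting and other settings, for WT cells at 12 h against untreated (left) and KO against WT cells at 12 h (right); filled symbols have a limma adjusted p below 0.05. All values keep their sign, from -1.40 to -0.57 for miR-26a in WT cells and from 0.73 to 1.39 in KO against WT cells, and both normexp settings give the smallest sizes in the left panel.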

How the data were processed

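Cy3-labelled RNA was hybridised to Agilent 1-colour miRNA arrays. Per the file headers the deposited spot values are intensity in arbitrary units, background-subtracted by Agilent Feature Extraction 10.7.1.1 (per the submitters' processing notes) and not scaled between arrays. The authors' deposited table holds log2 values, equal to the log2 of the authors' total gene signal, an intensity per miRNA. Other deposited columns hold flags.

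The signal of a miRNA was the sum over probes of the mean processed signal of spots, without controls and outlier flags, scaled as described above and raised to a floor of -4.96 (log2). A miRNA was tested if in any group both arrays had it well above background (at least 50 percent of a probe's spots), which left 145 of mouse. limma 3.58.1 (in R 4.3.3) fitted the 6 group means with lmFit and eBayes, with 6 residual degrees of freedom and Benjamini-Hochberg adjustment over 145 and a threshold of 0.05. There were 11 comparisons. Members, lists and rules were chosen with earlier results of these data known. miRNAs named beside the members were the 5 most and 2 least correlated with each, and the 4 of each list with the highest mean signal. The deposited files hold no mean signal, so normexp (offset 50) used the median signal. Alternatives covered background, measure, scaling, floor, filter, the spread estimate, blocks (statmod 1.5.0) and omission of each array.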

Additional observations from a re-analysis of the deposited data

Results flagged for a closer look

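The response of miR-26a to tunicamycin differed between genotypes at 12 h by 1.27 (KO response minus WT response, log2, SE 0.22). Its difference from untreated was 0.06 in KO cells and -1.21 in WT cells. The value is a description, since the comparison was the one that chose miR-26b and is given without a test for both miRNAs.

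The response of miR-26b at 12 h differed between genotypes by 1.36 (SE 0.23), from 0.42 in KO cells and -0.94 in WT cells, also as a description. Here the untreated KO signal of miR-26b already differed from that of untreated WT cells by -0.66. Relative to the median of the 82 always-detected miRNAs that difference was -0.12, and with normexp it was 0.37 without reference to the median.

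At 24 h the response of miR-26a differed between genotypes by 0.97 (SE 0.22), from -0.20 in KO cells and -1.18 in WT cells. It is a description, since the WT value chose miR-26a. Over settings other than omissions of an array it ran from -0.43 to 0.97.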

How the results depend on the processing

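Values that crossed the threshold, reversed or moved are given by setting as log2 differences. WT or KO with a time stands for tunicamycin minus untreated, genotype for KO minus WT, and response for the KO response minus the WT response. The causes of these shifts were not tested. With normexp, miR-26a was -0.57 (WT 12 h), 0.035 (WT 24 h), -0.31 (KO 12 h), 0.26 (response 12 h), -0.43 (response 24 h), 0.73 (genotype 12 h) and 0.038 (genotype 24 h). miR-26b was -0.32 (WT 12 h), 0.38 (WT 24 h), -0.42 (KO 12 h), -0.42 (KO 24 h), -0.097 (response 12 h), -0.80 (response 24 h), 0.37 (genotype untreated), 0.28 (genotype 12 h), -0.43 (genotype 24 h) and 0.0023 (KO 24 h over 12 h). With normexp without spots of outlying local background, chosen after seeing the data, miR-26a was -0.61 (WT 12 h), -0.37 (WT 24 h), 0.049 (KO 24 h), 0.74 (response 12 h), 0.41 (response 24 h), 0.77 (genotype 12 h) and 0.44 (genotype 24 h). miR-26b was -0.37 (WT 12 h), -0.043 (WT 24 h), 0.81 (response 12 h), -0.49 (genotype untreated), 0.32 (genotype 12 h), -0.00101 (genotype 24 h) and 0.0023 (KO 24 h over 12 h). With the total gene signal, miR-26a was -1.17 (WT 12 h), 0.93 (response 24 h), 1.12 (genotype 24 h) and -0.074 (WT 24 h over 12 h). miR-26b was -0.90 (WT 12 h), -0.048 (KO 24 h), -0.59 (genotype untreated) and 0.70 (genotype 12 h). With median scaling, miR-26a was -0.92 (WT 12 h), -0.14 (KO 12 h), 0.77 (response 12 h), 0.63 (response 24 h), 1.08 (genotype 24 h) and -0.17 (WT 24 h over 12 h). miR-26b was -0.65 (WT 12 h), -0.19 (KO 24 h), 0.87 (response 12 h), -0.34 (genotype untreated), 0.53 (genotype 12 h) and -0.0070 (WT 24 h over 12 h). With the 75th percentile over all miRNAs, miR-26a was -1.09 (WT 12 h), -0.95 (WT 24 h), -0.70 (KO 12 h), 0.39 (response 12 h), -0.083 (response 24 h), 1.07 (genotype 12 h) and 0.60 (genotype 24 h). miR-26b was -0.82 (WT 12 h), -0.52 (WT 24 h), -0.33 (KO 12 h), -0.77 (KO 24 h), 0.49 (response 12 h), -0.25 (response 24 h), -0.10 (genotype untreated), 0.38 (genotype 12 h) and -0.36 (genotype 24 h). With quantile normalization, miR-26a was -1.29 (WT 12 h), -0.65 (KO 12 h), 0.65 (response 12 h), 0.55 (response 24 h), 1.01 (genotype 12 h), 0.92 (genotype 24 h) and -0.0093 (WT 24 h over 12 h). miR-26b was -1.07 (WT 12 h), -1.04 (WT 24 h), -0.25 (KO 12 h), -0.71 (KO 24 h), 0.83 (response 12 h), -0.28 (genotype untreated) and 0.54 (genotype 12 h). With the deposited value table, miR-26a was 0.93 (response 24 h) and -0.074 (WT 24 h over 12 h). miR-26b was -0.90 (WT 12 h), -0.049 (KO 24 h), -0.60 (genotype untreated) and 0.70 (genotype 12 h). Without scaling, miR-26a was -2.004 (WT 24 h), -0.63 (KO 12 h), -1.35 (KO 24 h), 0.77 (response 12 h), 0.66 (response 24 h), 1.30 (genotype 12 h), 1.18 (genotype 24 h) and -0.60 (WT 24 h over 12 h). miR-26b was -1.57 (WT 24 h), -0.27 (KO 12 h), -1.08 (KO 24 h), 0.86 (response 12 h), -0.26 (genotype untreated), 0.60 (genotype 12 h) and -0.44 (WT 24 h over 12 h). With a floor at 50 percent of its height, miR-26a was 0.97 (response 24 h). Without a filter on dim miRNAs, miR-26a was 0.97 (response 24 h). miR-26b was -0.66 (genotype untreated) and 0.70 (genotype 12 h). With only miRNAs well above background on all arrays, miR-26a was 0.97 (response 24 h). With only the groups compared, miR-26a was 0.97 (response 24 h), 1.10 (genotype 24 h) and miR-26b was 0.70 (genotype 12 h). The ratio of miR-26b to miR-26a lost both calls with normexp (-0.34 and 0.11), and with quantile normalization, added after seeing the data, that for tunicamycin (0.23).

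Leaving out 1 array gave ranges of 0.78 to 1.17 (response 24 h), -0.056 to 0.17 (KO 12 h), 0.90 to 1.29 (genotype 24 h) and -0.070 to 0.14 (WT 24 h over 12 h) for miR-26a. For miR-26b they were -0.16 to 0.28 (KO 24 h), 0.58 to 1.03 (response 24 h), -0.70 to -0.62 (genotype untreated), 0.56 to 0.84 (genotype 12 h), -0.082 to 0.36 (genotype 24 h) and -0.59 to -0.14 (KO 24 h over 12 h). Where an omission left a group with 1 array, that array was taken to vary like the others.

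The replicate numbers are shared across groups. Differences between replicates 1 and 2 correlated from 0.68 to 0.95 between groups on the same slide, where arrays of 1 number also shared a scan date, and from -0.54 to -0.24 between groups on different slides. The numbers therefore go together within a slide and not across slides. The replicate block changed 1 call, that of miR-26b for response 24 h, at 0.80, as did the scan date as a fixed block, at 0.80. Counts of all tested miRNAs called moved widely over settings other than omissions: 0 to 51 for WT 12 h (45 as reported), 0 to 63 for WT 24 h (22), 0 to 18 for KO 12 h (1), 0 to 55 for KO 24 h (3), 0 to 47 for response 12 h (33), 0 to 16 for response 24 h (12), 0 to 90 for genotype untreated (47), 0 to 38 for genotype 12 h (36), 0 to 21 for genotype 24 h (22) and 0 to 6 for KO 24 h over 12 h (0).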

Other observations

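Scaling decided which KO array at 24 h was higher. Without scaling, replicate 1 had 90.4 units of miR-26a signal and replicate 2 had 192.6, and for miR-26b replicate 1 had 40.8 and replicate 2 had 83.4. After division by each array's 75th percentile, which was 203.5 on replicate 1, the scaled signals of miR-26a were 0.444 and 0.340 and those of miR-26b 0.200 and 0.147. The brighter array before scaling was the dimmer one after it for both miRNAs.

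The deviations of miR-26a and miR-26b from their group means correlated at 0.957 over the 12 arrays, against 0.70 for their levels. The deviations share each array's scale and come in 6 mirrored pairs, so this is a description.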
